A study of Mus musculus with 16 samples.

Results

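Csf1r, Adgre1, Spi1 and Lyz2 are 4 genes used as markers of macrophages. H3K27Ac, the acetylation of lysine 27 of histone H3 that marks active promoters and enhancers, was examined at these genes in mouse livers treated with clodronate liposomes. The members were chosen by position: every H3K27Ac peak of every animal in 1 window of the NCBI37/mm9 genome per gene was taken. The windows were chr18:61250000-61310000 for Csf1r (60 kb), chr17:57480000-57640000 for Adgre1 (160 kb), chr2:90900000-90970000 for Spi1 (70 kb) and chr10:116695000-116735000 for Lyz2 (40 kb). They held 127 of the 500869 peaks of the series. Peaks that overlapped between any of the 15 animals were joined into 1 merged region, and 17 of 56941 merged regions touched the windows.

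The study followed the course from chronic liver inflammation to hepatocellular carcinoma (HCC). Normal livers (WT) came from 5 Mdr2-WT mice of strain FVB.129P2, aged 14 to 19 months; the study's methods name the wild-type strain FVB/NJ. Inflamed livers came from 5 Mdr2-KO mice of strain FVB.129P2-Abcb4tm1Bor/J, aged 7 to 8 months, and HCC nodules from 5 such mice aged 14 to 19 months. Mdr2 (Abcb4) encodes the transporter that moves phosphatidylcholine into bile, and mice that lack it develop bile-driven liver inflammation and later tumours. The knockout is carried by all cells of the body, so the immune cells of these mice lack the gene as well. All 15 animals received clodronate liposomes at 50 μg per g of body weight, 48 h before collection, per the labels, whereas the study's methods describe a fixed load of clodronate, and the sources differ in the amount. No animal without clodronate had a peak list here, so the values describe what was left after treatment, not what treatment removed. Age cannot be told apart from disease stage between inflamed livers and the other groups. Sex of each animal was not given in the sources used here.

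Macrophages of the liver include the resident Kupffer cells and cells that arise from blood monocytes. They take up liposomes by phagocytosis, and clodronate released inside them kills them. Their identity depends on the transcription factor PU.1, the product of Spi1, which binds enhancers across the myeloid genome, and their survival on the receptor for colony-stimulating factor 1, the product of Csf1r. Adgre1 encodes the surface protein F4/80, and Lyz2 encodes lysozyme M, a secreted enzyme that cleaves bacterial cell walls. None of the 4 genes is used by macrophages alone: Spi1 is also active in B cells and neutrophils, Lyz2 in neutrophils and Adgre1 in eosinophils. The tissue was taken whole, so fewer cells of a type and less acetylation per cell cannot be told apart.

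The Lyz2 promoter is the only one among the 4 members with an entry in the promoter table used here. It is shown because the gene has a neighbouring paralog, Lyz1, with a promoter of similar sequence, and because both carry a match to a PU.1 motif. The 250 bases before each gene's start were taken from RefSeq on GRCm38.p6, minus strand, at chr10:117282273-117282522 for Lyz2 and chr10:117292869-117293118 for Lyz1. These positions belong to a later genome build than the peaks and were not matched to them. Capitals mark AGGAAGT or its reverse complement ACTTCCT.
Lyz2: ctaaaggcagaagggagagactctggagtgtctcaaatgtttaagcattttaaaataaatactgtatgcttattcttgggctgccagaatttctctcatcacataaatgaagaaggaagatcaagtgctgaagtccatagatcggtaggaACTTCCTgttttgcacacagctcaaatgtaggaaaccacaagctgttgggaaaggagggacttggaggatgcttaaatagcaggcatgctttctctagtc
Lyz1: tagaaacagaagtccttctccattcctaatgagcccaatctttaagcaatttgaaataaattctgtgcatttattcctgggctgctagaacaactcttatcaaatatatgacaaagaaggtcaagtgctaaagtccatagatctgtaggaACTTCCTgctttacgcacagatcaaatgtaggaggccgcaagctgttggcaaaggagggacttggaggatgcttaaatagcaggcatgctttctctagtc

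Each promoter held 1 match, and in both the match began 100 bases before the gene's start. Of 32851 promoters in the table, 7.69% held the motif on either strand in the same 250 bases, and a match is a description of letters, not of binding. The motif was chosen after the sequences were seen. The pair of promoters had the same base at 152 of 250 positions when laid side by side without gaps. Of the 215 stretches of 36 bases in the Lyz2 sequence, the length of the sequenced reads, 15 also occurred in the Lyz1 sequence. How reads with several equal matches were treated is not given in the sources used here.

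The data were 1 list of peaks per animal, called by the authors with MACS, and the measure was the number of base pairs of a window that lay under peaks, called covered length here. The lists held no read counts, so depth is unknown and no interval for counting error can be given. Lists differed in length. WT livers had 26375 to 30268 peaks, inflamed livers 35901 to 40909, and HCC nodules 26683, 39291, 42736, 30110 and 28749 (animals 124711, 125278, 125279, 123206 and 123390 in this order). WT animal 130748 and HCC animal 124711 stood apart from the rest: their peaks covered the least of the genome, 109 Mb and 92.5 Mb against 117 to 175 Mb in the other animals, and 23.5% and 24.5% of their peaks shared 1 tied score against 9.52% to 18.1% elsewhere. The comparisons of nodules by window below are given with and without nodule 124711, which changed several of them. Those by merged region are given with all nodules only.

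Peaks in the Csf1r, Adgre1 and Lyz2 windows were listed in Mdr2-KO animals and in none of the 5 WT livers. The Spi1 window held peaks in all 15 animals. Covered length in 3 of the 4 windows (Csf1r, Spi1 and Lyz2) was higher in every inflamed liver than in every WT liver, as in 15.7% to 17.1% of windows of the same lengths with a peak in either group. The count was also 3 without WT animal 130748, a setting for which no share of all windows was available. HCC nodules ranged from no peak outside Spi1 (animal 124711) to the longest covered length of any animal in each of the 4 windows (125278 for Csf1r, 125279 for the others), and with all 5 nodules included they overlapped inflamed and WT livers in every window. Overlap was what most windows of these lengths showed: all nodules lay above all WT livers in only 1.27% to 1.54% of those with a peak in either group, and above or below all inflamed livers in 1.44% to 1.5% and 4.74% to 5.33%.

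**Figure D1:**
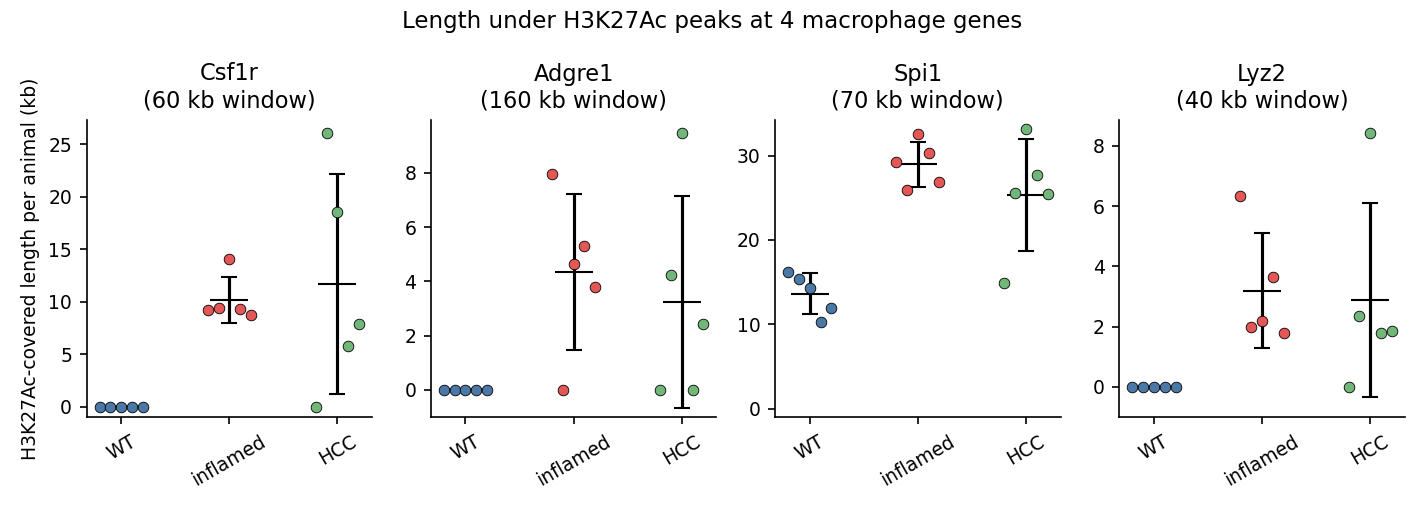
Covered length in kb (vertical axis, own scale in each panel) in the 4 windows, with 1 point per animal and the group mean ± SD as a bar. WT livers lie at 0 in the Csf1r, Adgre1 and Lyz2 windows and between 10244 and 16145 bp in the Spi1 window, and HCC nodules spread over a wider range than inflamed livers in every window.

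The Spi1 window was covered in every animal. In WT livers 134501, 129296, 130747, 129297 and 130748, peaks covered 16145, 15382, 14350, 10244 and 11985 bp of it. In inflamed livers 148997, 148998, 149198, 149199 and 148990, peaks covered 29211, 25916, 32595, 30300 and 26929 bp. In HCC nodules 124711, 125278, 125279, 123206 and 123390, peaks covered 14851, 25510, 33127, 27650 and 25469 bp. The groups of WT and inflamed livers did not overlap, and 4 of 5 nodules lay near or within the inflamed range while 124711 lay within the WT range. The means were 13621 ± 2454 bp for WT, 28990 ± 2667 bp for inflamed livers and 25321 ± 6634 bp for nodules (SD, n = 5 each), or 19.5%, 41.4% and 36.2% of the window.

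The difference of 15369 bp between inflamed and WT livers at Spi1 passed the test (exact two-sided permutation test, p = 0.00794, the smallest that 5 animals against 5 allow, adjusted p = 0.0371 by the Benjamini-Hochberg method over 17868 windows of the same length). Every inflamed liver lay above every WT liver in 17.1% of those windows, which are the ones with a peak in either group, as for the other tests. The mean of HCC nodules fell between the groups: the nodule mean minus the inflamed mean was -3669 bp (exact permutation test, p = 0.317), from -1051 bp without nodule 124711 to -5620 bp without nodule 125279 (exact permutation tests, p = 0.635 and 0.0794), and the nodule mean lay 11700 bp above that of WT livers (exact permutation test, p = 0.0238, adjusted p = 0.438). Leaving out nodule 124711, the only nodule within the WT range, removes the overlap by construction. The other nodules lay above every WT liver, by 14318 bp on average (exact permutation test, p = 0.0159, the smallest that 5 against 4 allow, adjusted p = 0.196), as was so in 6.70% of windows. By the number of peaks, inflamed and WT livers overlapped at Spi1, with 5 to 6 against 3 to 5 peaks (exact permutation test, p = 0.0238).

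The Spi1 window broke into 6 merged regions, and they did not behave alike. A region at chr2:90908013-90913617 had a peak in all 15 animals, with a covered length of 4669 ± 171 bp in WT, 4968 ± 184 bp in inflamed livers and 4633 ± 516 bp in nodules. A region at chr2:90947794-90956934 also had a peak in all 15 animals, at 5233 ± 1539, 5036 ± 444 and 6074 ± 2782 bp (SD, n = 5 each). Neither of these shared regions passed the test between inflamed and WT livers (exact permutation tests, adjusted p = 0.153 and 1 over 44697 regions).

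Most of the added length in inflamed livers lay between those regions. A region at chr2:90917741-90933266 had a peak in 3 of 5 WT livers, and in all inflamed livers and nodules. Its covered length was 2741 ± 2574 bp in WT, 12990 ± 1905 bp in inflamed livers and 10811 ± 3574 bp in nodules (SD, n = 5 each). Every inflamed liver lay above every WT liver there (exact permutation test, p = 0.00794, adjusted p = 0.0498, just under the threshold of 0.05). When every list was reduced to the same number of peaks, the mean lengths of both groups were unchanged and the groups still did not overlap. The unadjusted p was the same, but the region did not pass (exact permutation test, p = 0.00794, adjusted p = 0.0592). The adjustment also depends on the other regions. Inflamed livers lay above WT livers without overlap in 7.67% of 35022 regions in these lists, against 12.0% of 44697 in the full lists. In inflamed livers the region was a single broad peak of 9855 to 15022 bp, wider than 96.9% to 98.8% of the animal's own peaks. In WT livers 134501, 130747 and 130748 it was a peak of 5542, 3979 and 4186 bp.

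Next to it, a region at chr2:90935489-90940322 had a peak in 1 WT liver (129296), all 5 inflamed livers and all 5 nodules. Its means were 771 ± 1724, 4158 ± 526 and 3803 ± 559 bp (SD, n = 5 each), and the WT peak of 3856 bp lay within the inflamed range of 3630 to 4834 bp. It did not pass (exact permutation test, adjusted p = 0.115). Of the other 2 regions of the window, 1 had peaks in 3 inflamed livers alone (chr2:90900478-90903785). The other, at the window's far edge, had peaks in 2 WT livers alone. In RefSeq (GRCm38.p6) the protein-coding genes on either side of Spi1 are Slc39a13, a zinc transporter, and Mybpc3, a cardiac myosin-binding protein. No mm9 annotation was used here, so the peaks were not assigned to promoters, introns or neighbouring genes.

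**Figure D2:**
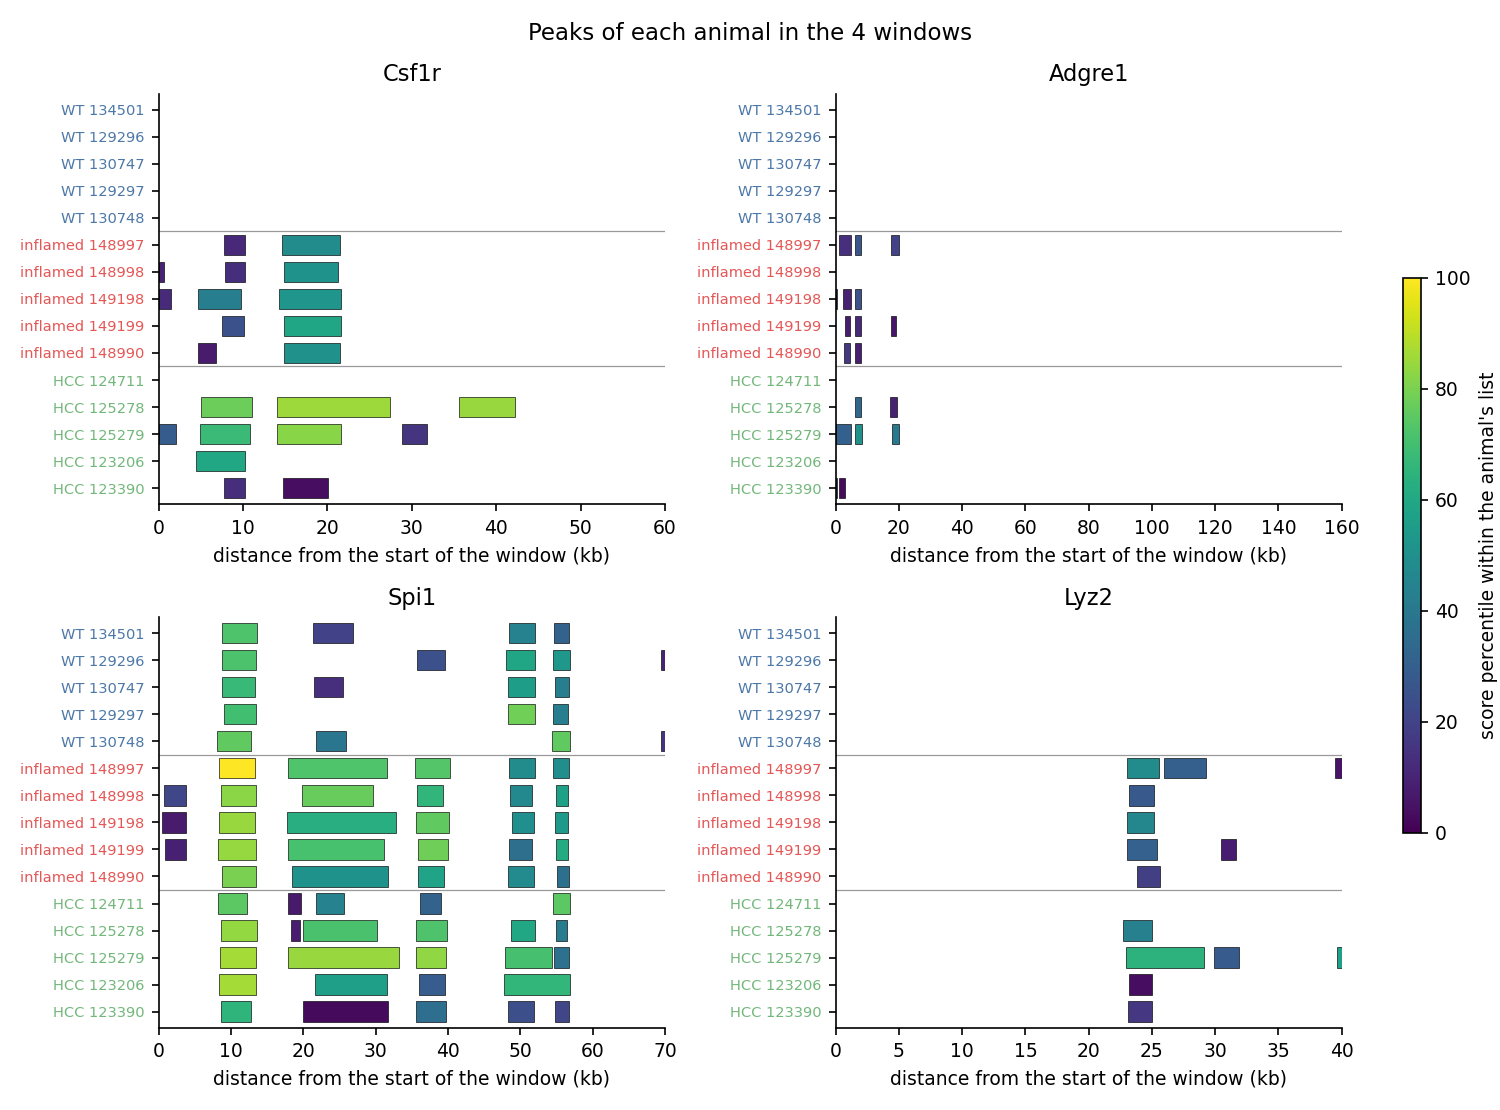
Peaks of each animal (rows, labelled by group and animal) along each window, as distance in kb from the window's start, coloured by the percentile of the peak's score within its own list. WT rows are empty for Csf1r, Adgre1 and Lyz2, and in the Spi1 window inflamed livers and nodules carry wide peaks left of the middle where WT livers have narrower peaks or none, nodule 124711 excepted.

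The Csf1r window, at the receptor that macrophages need to survive, held no peak in any WT liver. In inflamed livers 148997, 148998, 149198, 149199 and 148990, peaks covered 9216, 9375, 14014, 9276 and 8679 bp. In HCC nodules 124711, 125278, 125279, 123206 and 123390 they covered 0, 26038, 18544, 5807 and 7872 bp. Inflamed livers other than 149198 thus lay between 8679 and 9375 bp, whereas nodules ranged from no peak to more than any inflamed liver. The mean was 10112 ± 2198 bp in inflamed livers, 16.9% of the window, and 11652 ± 10472 bp in HCC nodules, 19.4% of it (SD, n = 5 each).

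Inflamed livers differed from WT livers at Csf1r (exact permutation test, p = 0.00794, adjusted p = 0.0377 over 19881 windows). With no peak in any WT liver, as also at Lyz2 and Adgre1, the p-values against WT livers depended on how many animals had a peak. They did not depend on the covered length. Every inflamed liver lay above every WT liver in 16.7% of windows of this length, and 23.5% of 21896 windows with a peak in any animal had none in WT livers. With the top 50% of each list by score, liver 148997 had no Csf1r peak and the groups overlapped (5406 bp, exact permutation test, p = 0.0476). The difference between HCC nodules and inflamed livers did not pass the test (1540 bp, exact permutation test, p = 0.794). The difference between nodules and WT livers did not pass the adjustment (11652 bp, exact permutation test, p = 0.0476, adjusted p = 0.452). Leaving out nodule 124711, the only nodule without a Csf1r peak, removes the overlap by construction. The difference was then 14565 bp (exact permutation test, p = 0.0159, adjusted p = 0.204), and 6.42% of windows separated in the same way. Against inflamed livers the difference was 4453 bp without nodule 124711 and -2056 bp without nodule 125278.

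Of 5 merged regions in the Csf1r window, 2 had a peak in each of the 5 inflamed livers but in no WT liver, a pattern found in 4.82% of 56941 merged regions of the genome. The region at chr18:61263988-61277468 was the more even among inflamed livers, with 6765 ± 368 bp (SD, n = 5), and 3 of 5 nodules had a peak in it. The region at chr18:61254427-61261058 had 2929 ± 1256 bp in inflamed livers and a peak in 4 of 5 nodules. A further region, chr18:61285593-61292179, had a peak in nodule 125278 alone, of 6587 bp and with a score above 84.4% of that animal's peaks. In RefSeq the protein-coding neighbours of Csf1r are Pdgfrb, the receptor for platelet-derived growth factor on mesenchymal cells, and Hmgxb3.

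The Lyz2 window, at the lysozyme gene, also held no peak in any WT liver. In inflamed livers 148997, 148998, 149198, 149199 and 148990, peaks covered 6351, 1995, 2197, 3655 and 1779 bp. In HCC nodules 124711, 125278, 125279, 123206 and 123390 they covered 0, 2347, 8436, 1775 and 1867 bp. Of the 9 animals with a peak, 6 had between 1775 and 2347 bp under peaks, and liver 148997 and nodule 125279 were the highest of their groups. The mean was 3195 ± 1911 bp in inflamed livers and 2885 ± 3229 bp in nodules (SD, n = 5 each), 7.99% and 7.21% of the window.

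The difference between inflamed and WT livers at Lyz2 passed the test (exact permutation test, p = 0.00794, adjusted p = 0.0395 over 25715 windows), with every inflamed liver above every WT liver in 15.7% of those windows. The call ended when every list was reduced to the same number of peaks, where the difference was 940 bp (exact permutation test, p = 0.444, adjusted p = 0.651), and with the top 50% of each list by score no inflamed liver had a peak in this window. The difference between nodules and inflamed livers did not pass the test (nodules minus inflamed livers -310 bp, exact permutation test, p = 0.873). Against WT livers the difference of 2885 bp did not pass the adjustment (exact permutation test, p = 0.0476, adjusted p = 0.472). Leaving out nodule 124711, the only nodule without a Lyz2 peak, removes the overlap by construction. The difference was then 3606 bp (exact permutation test, p = 0.0159, adjusted p = 0.215), with 5.94% of windows separated in the same way. Without nodule 125279 it was 1497 bp and the groups overlapped (exact permutation test, p = 0.0952). Nodules minus inflamed livers was 411 bp without nodule 124711 and -1698 bp without nodule 125279. The same difference was 479 bp without liver 148997, 1301 bp with the top 50% of each list and 1203 bp with every list reduced to the same number of peaks.

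The peaks of Lyz2 lay in 3 merged regions. The region at chr10:116717686-116724278 had a peak in all 5 inflamed livers, in 4 of 5 nodules and in no WT liver, with 2847 ± 1682 bp in inflamed livers and 2427 ± 2262 bp in nodules (SD, n = 5 each). The region at chr10:116734473-116742934 starts at the window's edge and lies mostly beyond it. Inside the window only inflamed liver 148997 and nodule 125279 had a peak of it. With peaks wholly past the window counted as well, it had peaks in all 5 inflamed livers, in 2 of 5 nodules and in no WT liver. Lyz1 is the next protein-coding gene on one side of Lyz2 in RefSeq. Whether it also lies in the window, and which of the paralogs any of the 3 regions belongs to, was not determined.

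The Adgre1 window, at the gene for F4/80, had the smallest share of its length under peaks of the 4 in inflamed livers and nodules. No WT liver had a peak in it. In inflamed livers 148997, 148998, 149198, 149199 and 148990, peaks covered 7957, 0, 4636, 5311 and 3810 bp. In HCC nodules 124711, 125278, 125279, 123206 and 123390 they covered 0, 4238, 9459, 0 and 2448 bp. Inflamed liver 148998 and 2 nodules thus had no peak in this window, as in WT livers. The mean was 4343 ± 2882 bp in inflamed livers and 3229 ± 3915 bp in nodules (SD, n = 5 each), 2.71% and 2.02% of the window.

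Because of liver 148998 the inflamed and WT groups overlapped at Adgre1, and the difference did not pass (4343 bp, exact permutation test, p = 0.0476, adjusted p = 0.118 over 9968 windows). Leaving out that liver, the only inflamed liver at 0, removes the overlap by construction, and the difference was then 5428 bp (exact permutation test, p = 0.0159, adjusted p = 0.0632), with 21.5% of windows separated in the same way. Leaving out any other animal left the groups overlapping (exact permutation tests, p = 0.0794 to 0.0952). The test of nodules passed against neither group (exact permutation tests, p = 0.611 for inflamed and p = 0.167 for WT livers). The difference from inflamed livers was -1114 bp with all nodules, -307 bp without nodule 124711 and -2671 bp without nodule 125279. It turned to 462 bp with the top 50% of each list, and to 1419 bp with every list reduced to the same number of peaks. The difference from WT livers was 4036 bp without nodule 124711 and 1672 bp without nodule 125279 (exact permutation tests, p = 0.0952 and 0.333). All peaks lay in the first part of the window, in regions at chr17:57475427-57484997, chr17:57486041-57488448 and chr17:57497145-57500094. The first of these runs across the window's start, on the side of the neighbouring gene Vav1, a signalling protein of blood cells. The 3 regions had peaks in 4, 4 and 2 inflamed livers and in 2 nodules each.

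Set beside the windows of their length that held a peak in any animal, the 4 windows took different places. The mean covered length at Spi1 exceeded that of 83.8% of 19618 windows in WT, 96.8% in inflamed livers and 94.5% in HCC nodules. At Csf1r it exceeded that of 76.3% of windows in inflamed livers and 80.5% in nodules. At Lyz2 the shares were 50.8% and 50.6% of 28792 windows, and at Adgre1 36.8% and 34.9% of 10683 windows. Among these windows, 17.9% at the length of Adgre1 and 26.1% at that of Lyz2 had no peak in WT livers. A peak in all 5 inflamed livers beside none in WT livers, as at Csf1r and Lyz2, was found in 4.18% and 4.51% of them at their lengths.

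Over the 17 merged regions, 4 had a peak in every one of the 5 inflamed livers and none in WT livers (2 at Csf1r and 2 at Lyz2), against 4.82% of all 56941 regions. The count is 3 when only peaks inside the windows are taken, without the edge region of Lyz2. In 5 of the 15 member regions with a peak in WT or inflamed livers, with the broad Spi1 region added and the edge region of Lyz2 counted over its whole length, every inflamed liver lay above every WT liver in covered length, against 12.0% of 44697 regions. These 5 passed the test at an adjusted p of 0.0498 each (exact permutation tests), as did 15.9% of the 44697 regions in either direction. In this comparison a region passed only where the groups did not overlap, and every such region passed. The test therefore adds nothing to the count of separated regions. Of those 15, 10 had no WT peak and could only be higher in inflamed livers, so no direction is read from the members as a list. No member region had peaks in every nodule but no inflamed liver, or in every inflamed liver but no nodule, and these kinds made up only 0.105% and 1.28% of all regions. When every list was reduced to the same number of peaks, none of the 17 regions and none of the regions of the genome passed, where the smallest adjusted p was 0.0592. In those lists 2 member regions still separated inflamed from WT livers, as did 7.67% of 35022 regions. They were the Csf1r region at chr18:61263988-61277468, with 6765 ± 368 bp against 0, and the broad Spi1 region, with 12990 ± 1905 bp against a mean of 2741 bp, both with the same lengths as in the full lists. Between nodules and the other groups no member region passed with the full lists, and none of the genome did (exact permutation tests with Benjamini-Hochberg adjustment). At an unadjusted p under 0.05 stood 0 of 16 member regions between nodules and inflamed livers, against 12.7% of 54675 regions, and 4 of 16 between nodules and WT livers, against 7.59% of 52284 (2 at Spi1, 1 at Csf1r and 1 at Lyz2).

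The score of each peak was placed within its own animal's list. These percentiles are descriptions within a list and were not compared between groups, because lists differ in length and peaks at the tied score share a percentile set by the number of ties. The strongest Spi1 peak was at the tied score in WT animal 130748, inflamed liver 149199 and nodules 124711 and 123206. The strongest peak of the Spi1 window exceeded 67.3% to 78.2% of its list in WT livers and 79.7% to 99.6% in inflamed livers. The highest of these was 1 peak of liver 148997 that scored just above the tie. In HCC nodules the range was 65.2% to 86.7%. In every animal this peak lay in a region with a peak in all 15 animals, not assigned to a gene. In the broad Spi1 region, the strongest peak exceeded 13.4% to 39.4% of the list in the 3 WT livers with a peak. There it exceeded 51.0% to 76.8% in inflamed livers and 2.61% to 84.5% in nodules. The strongest Csf1r peak exceeded 48.2% to 59.3% of its list in inflamed livers, near the middle of the list. In nodules with a Csf1r peak the values were 85.3% in 125278 (a peak at the tied score), 82.1% in 125279, 59.5% in 123206 and 13.3% in 123390. Lyz2 peaks reached 18.6% to 48.2% in inflamed livers and 3.22% to 64.3% in nodules. Adgre1 peaks lay lowest in inflamed livers, at 11.6% to 25.9%, and at 23.8% to 50.1% in nodules. The 23.8% belonged to a peak of nodule 123390 that lies mostly before the window's start. That nodule's other peak in the window exceeded only 2.59% of its list. In inflamed livers the peaks of Adgre1 and Lyz2 thus ranked below the middle of every list.

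**Figure D3:**
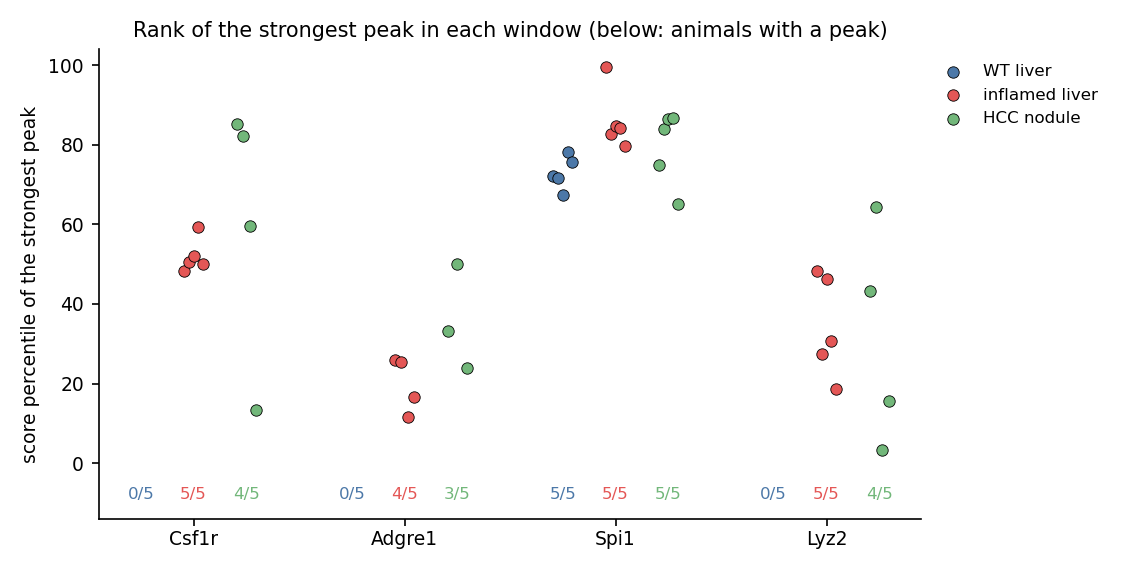
Percentile of the strongest peak's score within its own list (vertical axis), with 1 point per animal that has a peak in the window and, below, the number of such animals of 5. The highest value of each group is that of a peak in the Spi1 window, in a region with a peak in all 15 animals. Csf1r peaks of inflamed livers lie between 48.2 and 59.3, and all Adgre1 and Lyz2 peaks of inflamed livers lie under 50.

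Every inflamed list was longer than every WT list, so the windows were also compared in lists of equal length. When each list was reduced to its 26375 best peaks, Spi1 kept 27152 bp in inflamed livers against 13621 bp in WT, and Csf1r kept 7796 bp in inflamed livers against 0, both with no overlap (exact permutation tests, p = 0.00794, adjusted p = 0.0464 and 0.0470). Windows separated in this way made up 9.82% and 9.59% of windows of these lengths in equal lists. Lyz2 kept a peak in inflamed livers 148997 and 149198 only, with 2503 and 2197 bp (exact permutation test, p = 0.444), and Adgre1 kept none in any inflamed liver. In nodules with equal lists, Adgre1 kept 1886 bp in 125278, 4675 bp in 125279 and 536 bp in 123390. The 536 bp are the end of a peak that lies mostly before the window's start.

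**Figure D4:**
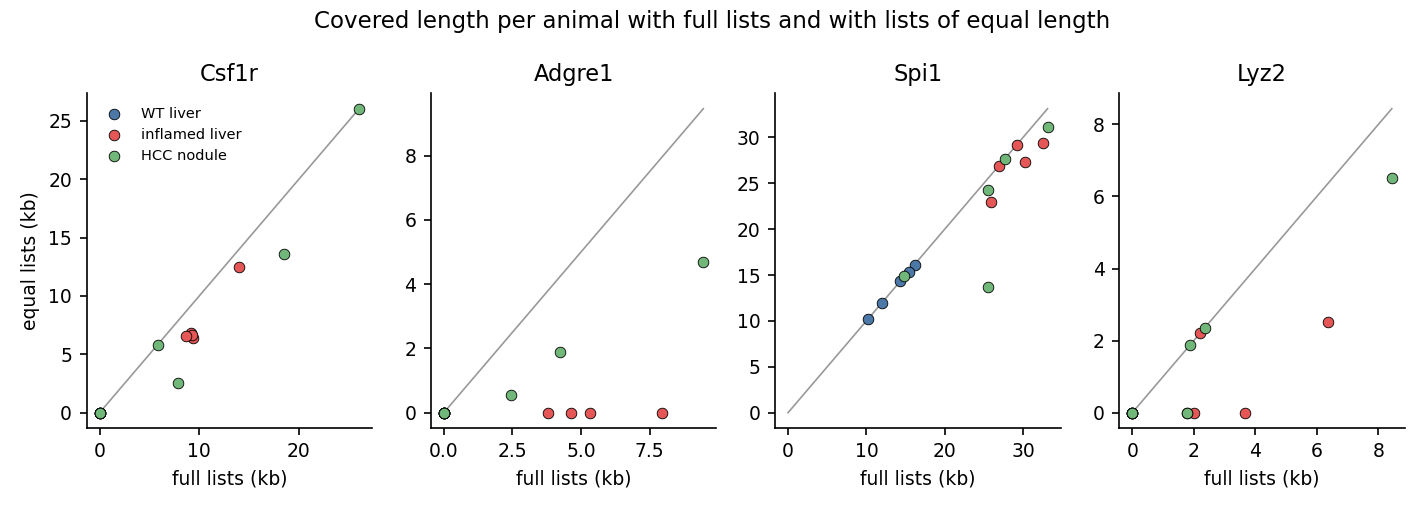
Covered length per animal with the full lists (horizontal axis, kb) and with every list reduced to the same number of best peaks (vertical axis, kb), where points on the grey line are unchanged and points at 0 share a place. Spi1 points stay near the line except for 1 nodule, while the inflamed livers with Adgre1 peaks drop to 0.

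Nodules differed widely among themselves. Summed over Csf1r, Adgre1 and Lyz2, covered length was 0 in 124711, 32623 bp in 125278, 36439 bp in 125279, 7582 bp in 123206 and 12187 bp in 123390. The 5 inflamed livers lay between 11370 and 23524 bp. The pair of nodules with the most covered length, 125278 and 125279, also had the longest lists among nodules, and 124711 had the shortest. Nodule 123206 had a longer list than 123390 (30110 against 28749 peaks) but less covered length. With equal lists, covered length at Csf1r ranged from 0 in 124711 to 26038 bp in 125278. The part of list length in this order was not tested.

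For each window, the merged region elsewhere in the genome whose covered length followed it most closely over the 15 animals was sought. For Csf1r it was chr7:108682233-108693746 (Pearson r = 0.930), for Adgre1 chr13:54310254-54316256 (r = 0.967), for Spi1 chr13:113213673-113218625 (r = 0.975) and for Lyz2 chr7:124623213-124636976 (r = 0.940). All 4 had no peak in WT livers and peaks in 4 or 5 inflamed livers and in 2 to 4 nodules. The next region for Lyz2, chr4:47295985-47310547, followed almost as closely (r = 0.939) and had peaks in all 5 animals of each group, WT livers included. Each of the 4 is the highest of between 32319 and 32358 correlations, the points share their peak lists, and no gene was assigned to the regions.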

How the data were processed

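Per the labels and the study's methods, H3K27Ac was immunoprecipitated from fixed tissue of 15 clodronate-treated mice and sequenced as 36 bp single reads. The submitters' processing notes name Bowtie 0.12.7, MACS 1.4 and mm9. The authors called peaks in each animal and deposited, for each peak, its position and a score on the peak caller's own scale, which served here only for ranks inside 1 list. The files hold no read counts, so depth per library is unknown. An IgG sample was not analysed here.

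Peaks on chromosomes 1 to 19 and X were used, and 28 others left out. Covered length was the number of base pairs under peaks in a window or in a region merged over animals. For groups of 5, the difference between mean lengths was tested by exact permutation (two-sided), and p-values were adjusted by the Benjamini-Hochberg method over all consecutive windows of the same length, or all regions, with a peak in either group. The smallest possible p is 0.00794. Where a whole group has no peak, p depends on the number of animals with a peak and not on their covered length. A rank is the percent of a list with a lower score. All 4 genes are named; the most alike regions were those with the highest Pearson correlation, with a peak in at least 5 animals and over 1 Mb away. Comparisons share groups: WT livers, inflamed livers and nodules each enter 2 of 3. The window and gene lists were chosen with earlier results of these data known. Further markers of macrophages, hepatocytes and other liver cells were planned and not located, since no mm9 annotation was used, so the labelled tissue was not checked against its markers.

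Alternatives were the top 50% of each list, equal lists, windows extended by 10000 bp, number of peaks, covered length per Mb under peaks, a peak with at least 50% of its length in the window, shifted comparison windows, and leaving out animals. Sequences came from RefSeq promoters. The test was checked on simulated data. Computation used Python 3.11.15, NumPy 2.4.6, SciPy 1.17.1 and matplotlib 3.10.9.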

Additional observations from a re-analysis of the deposited data

Results flagged for a closer look

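Within 18 sets of 5 animals examined, 2 held a sample far from the others, where chance gives about 1 in 20. In the Csf1r window, inflamed liver 149198 had 14014 bp under peaks, and the nearest inflamed liver had 9375 bp. In the Lyz2 window, HCC nodule 125279 had 8436 bp under peaks, and the nearest nodule had 2347 bp.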

How the results depend on the processing

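In 3 of the 4 windows every inflamed liver exceeded every WT liver, as in 15.7% to 17.1% of windows of the same lengths. That count fell to 2 with equal lists (without Lyz2), where 9.59% and 9.82% of windows of the Csf1r and Spi1 lengths separated. It fell to 1 (Spi1) with the top 50% of each list and to 2 by the number of peaks (without Spi1). For these 2 settings no share of all windows was available. The count was 3 to 4 when each animal was left out in turn, with a share available only for liver 148998. Without liver 148998 it was 4, and 17.8% to 21.5% of windows separated. Without that liver the adjusted p of the 4 windows was 0.0632 to 0.0705, as 5 animals against 4 allow fewer splits (this and the other adjusted values for reduced sets were added after seeing the data). With the top 50%, Csf1r had 5406 bp more in inflamed livers than in WT livers, and liver 148997 had none. No window separated nodules from WT livers, while 1.27% to 1.54% of windows of these lengths did, nodules higher. Without nodule 124711, 3 did by construction, as it was the only nodule that overlapped WT livers there (5.94% to 6.70% of windows). The range over animals left out was 0 to 3. Without WT animal 130748 and nodule 124711 the count was also 3 (7.38% to 8.31%). With covered length per Mb under peaks it was 1 (Spi1, 69.0 bp per Mb, 1.34%). Single regions that passed between inflamed and WT livers fell from 5 to 0 with equal lists (smallest adjusted p of any region 0.0592), where 2 of them still separated at unchanged lengths. Nodules against inflamed livers changed direction at Adgre1 with the top 50% (462 bp) and equal lists (1419 bp). At Lyz2 the direction changed with the same settings (1301 and 1203 bp), without nodule 124711 (411 bp) and without liver 148997 (479 bp). At Csf1r it changed with the number of peaks (-0.4 peaks), without nodule 125278 (-2056 bp) and without nodule 125279 (-183 bp). Leaving out each animal gave -2056 to 4453 bp at Csf1r and -1698 to 479 bp at Lyz2 for that comparison, -5620 to -1051 bp at Spi1 and -2671 to -210 bp at Adgre1, and no value of it passed. The cause of these changes was not tested. At Spi1 no alternative changed a direction. No paired analysis was possible because the groups share no replicate numbers. Depth is unknown, and a window without a peak may hold acetylation below the threshold of the peak caller.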
